A study of Mus musculus with 4 samples.

Results

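Rbfox1 and Rbfox3 are 2 of the 3 genes of the Rbfox family of splicing regulators. Regions were taken as theirs when the authors' lists gave either gene as the nearest start or as the gene that holds the region. Of 5432 listed regions, 8 met this rule, 6 of them at Rbfox1 and 2 at Rbfox3. Rbfox2 had 0 regions. The members were chosen by their presence in these lists, so their number and direction are a description and were not tested.

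The study profiled H3K9me3, a histone mark of silent chromatin, by CUT&Tag. In this assay a transposase tethered to an antibody cuts DNA near marked nucleosomes and adds sequencing adapters there. Microglia, the resident macrophages of the brain, were sorted from the telencephalon of C57BL/6 mouse embryos, at embryonic day 14 by the sample labels and 14.5 by the protocol. The knockout (KO) embryos, labelled Arid1acKO-Cx3cr1, carried a conditional loss of Arid1a, which encodes a subunit of SWI/SNF, the ATP-driven nucleosome remodeller, under Cx3cr1, a gene active in microglia and other mononuclear phagocytes. The controls, labelled WT, were Arid1a fl/fl embryos. Each genotype had 1 H3K9me3 library and 1 IgG library, from 100000 cells each. Pooling of animals is not stated. What was deposited are 2 lists of regions, 3488 with more H3K9me3 in KO than in control microglia and 1944 with less, and neither list gives a value per library. Depth is therefore unknown, and no direction has a replicate check. The identity of the sorted cells cannot be checked from DNA regions. Among defining genes of microglia, Csf1r had 1 higher region, and Cx3cr1, P2ry12, Aif1, Tmem119, Sall1 and Trem2 had 0. Only 10.7% of protein-coding RefSeq genes had a region, so nothing about the cells is read from these counts.

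Rbfox proteins bind a short GCAUG element in introns of pre-mRNA and decide whether a nearby exon is kept or skipped, with the outcome set by the side of the exon on which they bind. Rbfox1 acts in neurons, heart and skeletal muscle, Rbfox2 is expressed more broadly, and Rbfox3 is the NeuN antigen, the standard marker of neurons that have left the cell cycle. The genes are spread over long introns and use several alternative starts, so a region inside one of them can lie far from any promoter.

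The starts along each gene set the frame for the regions. RefSeq (GRCm38.p6) gives a start at the beginning of the Rbfox1 span and a second, internal start, and 1 start for Rbfox3 in the promoter table used here. The Rbfox3 start is internal too, 151 kb past the beginning of the RefSeq span. The 250 bases before each are shown. The authors' distances to starts are from transcripts, of which only Rbfox1-203 and Rbfox3-203 begin at or near a start shown here. The internal Rbfox1 start lies between the last higher and the first lower region assigned to that gene. The capitals mark CG dinucleotides, the sites of most DNA methylation in mammals.
Rbfox1 first start, chr16:5884543-5884792, plus strand: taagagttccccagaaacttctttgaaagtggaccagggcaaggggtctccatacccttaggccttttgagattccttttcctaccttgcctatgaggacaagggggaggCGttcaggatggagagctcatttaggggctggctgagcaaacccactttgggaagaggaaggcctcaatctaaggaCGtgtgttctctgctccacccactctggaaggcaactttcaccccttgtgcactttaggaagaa
Rbfox1 internal start, chr16:7069585-7069834, plus strand: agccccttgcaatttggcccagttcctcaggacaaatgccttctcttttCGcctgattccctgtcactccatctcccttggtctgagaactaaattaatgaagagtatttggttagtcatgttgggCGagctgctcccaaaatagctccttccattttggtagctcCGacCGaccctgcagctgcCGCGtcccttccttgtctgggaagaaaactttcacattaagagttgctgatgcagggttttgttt
Rbfox3 start, chr11:118761042-118761291, minus strand: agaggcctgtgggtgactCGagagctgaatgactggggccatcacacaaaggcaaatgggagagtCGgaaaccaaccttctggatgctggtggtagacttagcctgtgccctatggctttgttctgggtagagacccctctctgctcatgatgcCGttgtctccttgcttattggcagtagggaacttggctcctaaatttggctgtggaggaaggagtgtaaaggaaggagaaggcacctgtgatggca
The windows held 2, 6 and 3 CG in that order, against a median of 6 over the 32851 promoter windows of the same length, of which 92.1% held at least 1 CG on either strand. Their GC content was 51.2%, 48.4% and 52.8%, against a median of 52.4%. None of the 3 windows held a listed region. The starts of Rbfox1-201 and Rbfox1-207, from which other distances are given, have no window here. The nearest listed region lay 29.7 kb from the first Rbfox1 window, 41.8 kb from the internal one and 93.0 kb from the Rbfox3 window.

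Rbfox1 had more H3K9me3 in KO microglia at 4 places in its first introns. It had less at 2 places farther along, 1 in intron 4 and 1 beyond the end of the gene. The higher regions came first in the direction of transcription and the lower ones last, with no change back between them. Inside the gene this order rests on 1 lower region, and both lower regions scored below the median of their list. Of the 6 regions, 4 (66.7%, exact 95% interval 22.3 to 95.7, which covers counting error only) were in the higher list. Over all listed regions this share was 64.2%, and 35.8% were in the lower list. Because the lists chose the members, nothing is read from the match.

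The regions were placed by the authors on the transcript Rbfox1-201, which runs over 1062 kb of chromosome 16 with 14 introns. Positions are printed as deposited and were taken to be on GRCm38. The most upstream region, chr16:6380180-6380494, was 315 bp wide, lay in intron 1, 31042 bp after the start of that transcript, and had a peak score of 3.39 in the higher list. This score comes from the authors. Its scale is not stated, so it serves here to rank regions within a list and not as a size of change. The next region, chr16:6542698-6543233, lay in intron 2, was 536 bp wide and scored 4.40, the highest of the 4 higher regions. Intron 3 held 2 regions. The first of them, chr16:6950078-6950636, was 559 bp wide and scored 3.39, and the second, chr16:7027418-7027762, was 345 bp wide and scored 4.20. The transcript Rbfox1-203 begins close to the internal RefSeq start, and both regions lay before its first base, by 119210 and 42084 bp. All 4 of these regions were higher in KO than in control microglia.

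The direction turned within a gap that holds the starts of both Rbfox1-203 and Rbfox1-207. The first lower region, chr16:7257671-7258186, lay in intron 4, was 516 bp wide and scored 2.19. It was 188 kb past the start of Rbfox1-203 and 33361 bp past the start of the short transcript Rbfox1-207. The last region, chr16:7454707-7455021, was 315 bp wide and scored 1.58 in the lower list. It belonged to no gene body. It was classed as distal intergenic, 43.2 kb beyond the end of Rbfox1-201, and was assigned to Rbfox1 only because the start of Rbfox1-207 was nearest, 230397 bp away. The 5 regions inside the gene thus all lay in introns 1 to 4, and no exon, untranslated region or promoter of Rbfox1 held one. The 10 later introns share at most the 153 kb after the intron 4 region, or 14.4% of the transcript.

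Spacing along Rbfox1 was uneven. Between midpoints, neighbouring regions were 163, 407, 77.2, 230 and 197 kb apart, from the first to the last. The median of these 5 spacings was 197 kb, against 312 kb (quartiles 127 and 627) over 5411 pairs of neighbouring listed regions on all chromosomes and 270.2 kb over 228 pairs on chromosome 16. The members were chosen for lying at the same gene, within 1075 kb, which limits their spacings. Nothing is therefore read from the shorter median. The closest pair were the intron 3 regions, and the widest gap separated the intron 2 region from them. The change from higher to lower fell in the gap of 230 kb. The authors numbered their regions along the chromosomes, and no number is missing between the 6.

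**Figure D1:**
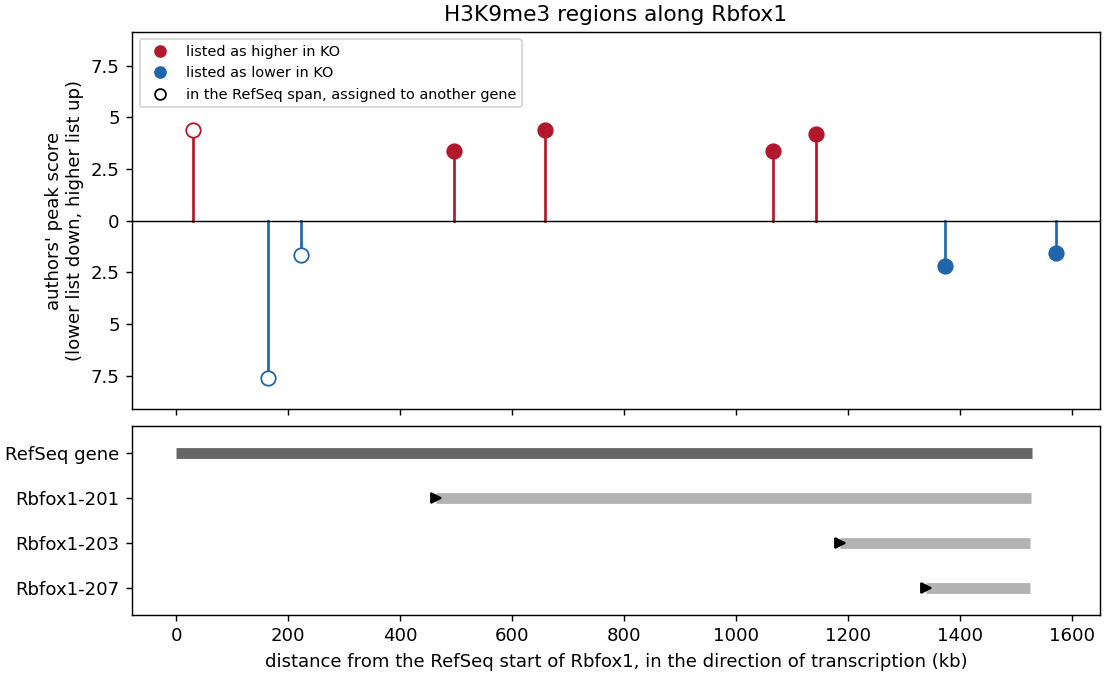
Regions along Rbfox1, with distance from the RefSeq start in kb on the x axis and the authors' peak score on the y axis, drawn upward for the higher list and downward for the lower list, and with the RefSeq span and the transcripts named in the lists as bars below, whose arrowheads mark their starts. Filled points are the 6 regions assigned to Rbfox1, of which the 4 higher ones precede the 2 lower ones, and open points are the 3 regions inside the RefSeq span that the authors assigned to another gene.

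The order of directions depends on where the gene is taken to begin. The RefSeq span of Rbfox1, chr16:5884793-7412480, is 1528 kb long and starts 464 kb before Rbfox1-201. In this added stretch lay 3 more listed regions, which the authors classed as distal intergenic and assigned to the RIKEN clone gene 1700123O21Rik. The first, chr16:5914522-5914802, was in the higher list with a score of 4.40. The next, chr16:6048727-6049082, was in the lower list with a score of 7.60, above 97.5% of that list and above the 4 lower regions assigned to Rbfox1 or Rbfox3. The third, chr16:6106855-6107287, was also in the lower list, with a score of 1.66. Along the RefSeq span the directions therefore ran higher, lower, lower, higher at 4 places, and lower, so that 5 of 8 regions were higher (62.5%, exact interval 24.5 to 91.5). A single turn held along Rbfox1-201 and not along the longer RefSeq span.

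Rbfox3 had regions of the lower list only. Both lay in intron 3 of 13 of the transcript Rbfox3-205, on the minus strand of chromosome 11. In the direction of transcription the first was chr11:118667650-118668035, 386 bp wide with a score of 3.61, and the second was chr11:118653767-118654205, 439 bp wide with a score of 3.36. They lay 93006 and 106836 bp past the start of Rbfox3-203. A gap of 13.4 kb separated them, which was narrower than any gap between the Rbfox1 regions, and no numbered region lay between them. Over all listed regions 64.2% were higher and 35.8% lower. With 0 of 2 regions higher at Rbfox3, the exact interval of the share reaches 84.2% and so takes in the 64.2%. This interval covers counting error only. Direction was not compared between the 2 genes, and nothing is read from so few regions chosen from these lists. The RefSeq span of Rbfox3 is 422 kb, begins 151 kb before Rbfox3-203, and held no further region.

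**Figure D2:**
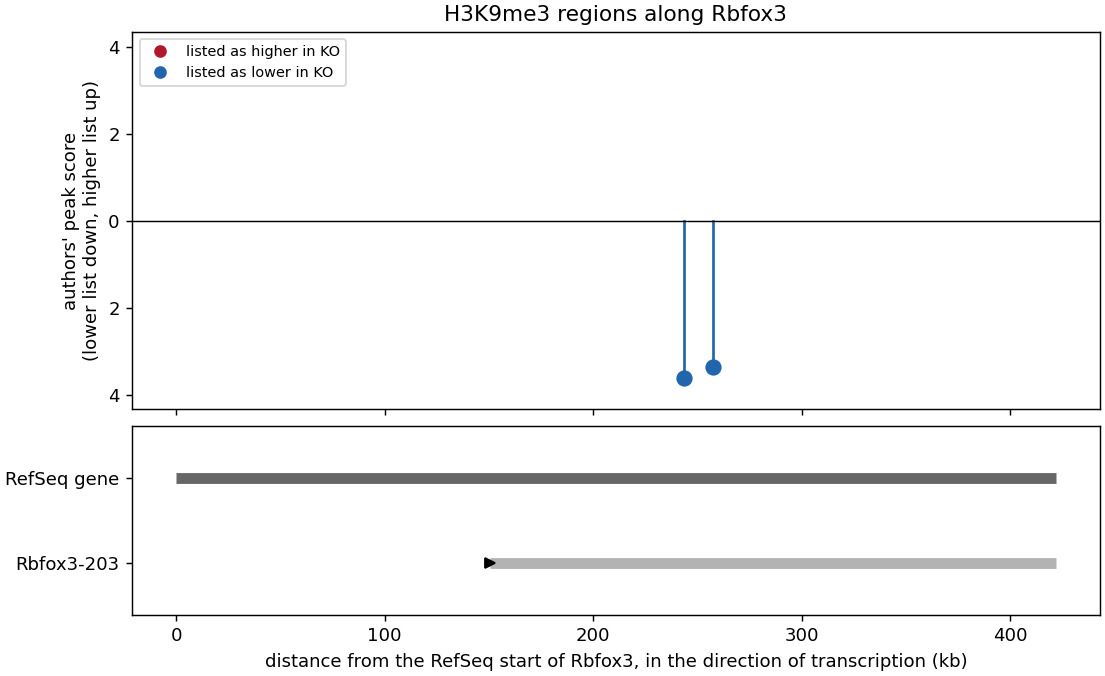
Regions along Rbfox3, with distance from the RefSeq start in kb on the x axis and the authors' peak score on the y axis, drawn downward for the lower list. The 2 regions, scored 3.61 and 3.36, lie near each other in the middle of the gene, and none is in the higher list.

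Within their lists the members ranked differently. Each of the 4 higher Rbfox1 regions scored above the median of the higher list, 2.52. The intron 2 region scored above 85.2% of that list and the second intron 3 region above 82.7%. The intron 1 region and the first intron 3 region had the same score and each scored above 68.5%. This score was shared by 124 regions, since the 3488 higher regions take only 190 distinct values. The lower Rbfox1 regions scored below the median of the lower list, 2.66. The intron 4 region scored above 23.6% of that list and the intergenic region above 3.45%. The Rbfox3 regions ranked higher in the same list, above 74.8% and 72.0% of its regions.

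**Figure D3:**
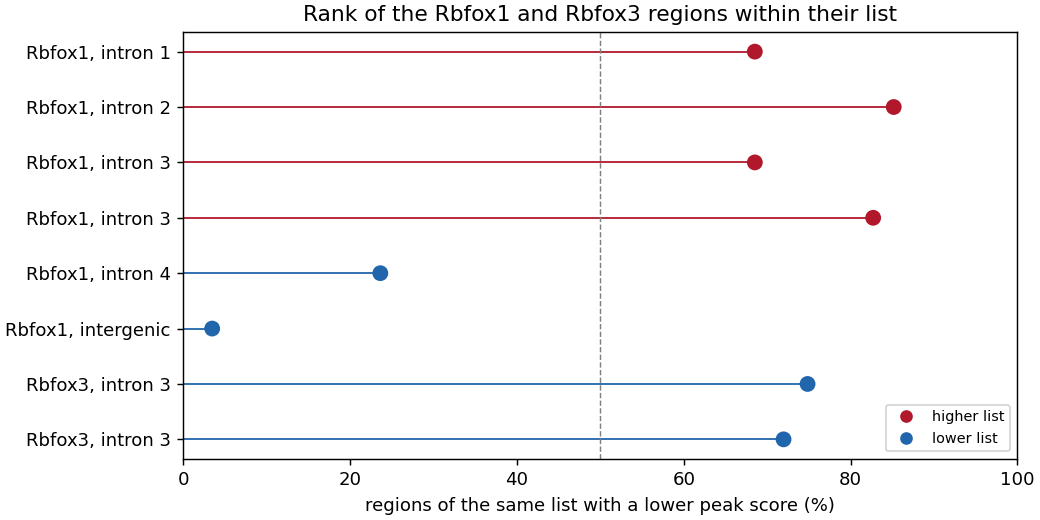
Rank of each region by score, as the percentage of its own list that scored lower, with the 8 regions in the direction of transcription down the page and a dashed line at the middle of the list. The 4 higher Rbfox1 regions and the 2 lower Rbfox3 regions lie above the middle, and the 2 lower Rbfox1 regions lie below it.

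Widths did not follow the same order. The median width was 404 bp in the higher list and 357 bp in the lower list. The Rbfox1 regions in intron 2 and the first in intron 3 were wider than 79.7% and 82.8% of the higher list, while those in intron 1 and the second in intron 3 were wider than only 18.1% and 29.8%. The lower Rbfox1 region in intron 4 was wider than 88.7% of the lower list although its score was below the median.

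A long gene can hold several regions through its length, so the counts were also read per Mb. By the authors' placement Rbfox1 held 5 regions in 1.53 Mb, or 3.27 per Mb (exact Poisson 95% interval 1.06 to 7.64). With every region that overlaps the RefSeq span it held 8, or 5.24 per Mb (2.26 to 10.3), and over the length of Rbfox1-201 alone the density was 4.71 per Mb. Rbfox3 held 2 regions in 0.422 Mb, or 4.74 per Mb (0.574 to 17.1), and 7.37 per Mb over the length of Rbfox3-203. Rbfox2, at 0.229 Mb, held 0, which allows up to 16.1 per Mb. Over the merged spans of all RefSeq genes, 2675 overlapping regions gave 2.15 per Mb. Rbfox1 and Rbfox3 were chosen for their presence in these lists, and overlap was counted only after seeing the data. Nothing is therefore read from their densities against this value.

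Among the 64 genes of 1 Mb or more, Rbfox1 ranked 17th by length. The authors' placement gave these genes a median of 2 regions each and 1.67 regions per Mb in all (1.42 to 1.97). By this placement 11 of the 64 held 0 regions. Most of these 11 did hold regions by overlap with the RefSeq span, up to 6 at Igh, and the median by overlap was 3. By the authors' placement Rbfox1 was one of 4 genes with 5 regions, beside Fhit, Magi2 and Galntl6, and 4 genes held more. These were Lsamp with 8 and Opcml with 7, which encode neuronal adhesion proteins, and Macrod2 and Rbms3 with 6 each. By regions overlapping the RefSeq span, Rbfox1 and Lsamp held the most, 8 each, and Rbfox1 had the third highest density after Opcml and Rbms3. By the authors' placement its density ranked 10th. The 10 longest loci, Igk, Igh, Dmd, Ptprd, Cntnap2, Lsamp, Lrp1b, Macrod2, Dlg2 and Tcra, held 0 to 8 regions each by the authors' placement. Of the 150 regions placed in genes of 1 Mb or more, 108 were higher and 42 lower, which is 72.0% higher (exact interval 64.1 to 79.0), against 64.2% of all listed regions. This share depends on the placement. By overlap with the RefSeq spans these genes held 195 regions, and the share of higher ones was smaller and closer to 64.2%. Rbfox1 is among these genes. It was chosen for its presence in the lists, so its ranks by count and density are a description and were not tested.

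**Figure D4:**
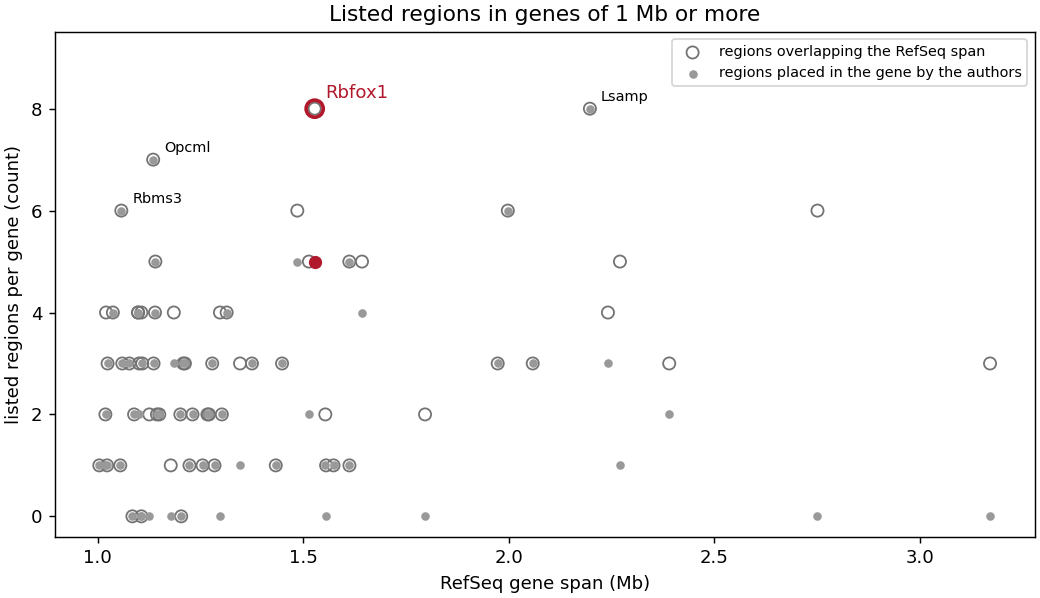
Listed regions per gene against the RefSeq span in Mb for the 64 genes of 1 Mb or more, with filled points for regions placed in the gene by the authors, open points for all regions overlapping the span, and Rbfox1 in red. Rbfox1 has 5 regions by placement and 8 by overlap, as many by overlap as the longer gene Lsamp.

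Other splicing regulators and RNA-binding proteins also had regions in both lists. Of 89 such genes, the Rbfox genes included, 13 (14.6%) had regions. Without the Rbfox genes 11 of 86 (12.8%) had regions, 7 in the higher list only, 2 in the lower list only and 2 in both. Of 21900 protein-coding RefSeq genes, 10.7% had a region counted in the same way. Rbfox1 and Rbms3, which encodes an RNA-binding protein and is itself over 1 Mb long, had 6 regions each, the most in the list. At Rbms3, 3 were higher and 3 lower, all in introns, with scores between 1.73 and 5.25. The 27 regions of the 89 genes were 63.0% higher (exact interval 42.4 to 80.6), against 64.2% of all listed regions, and without Rbfox1 and Rbfox3 13 of 19 were higher.

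By family, the CELF genes, which encode regulators of exon choice, had 4 higher regions and 1 lower region. Over all listed regions 64.2% were higher, and nothing is read from the few regions of a family. Celf2 had 1 higher and 1 lower region, both in introns. Celf4 had 2 higher regions in introns, and Celf5 1 higher region that lay in an intron of Ncln. Of the Elavl genes, which encode Hu proteins that bind AU-rich RNA, Elavl2 had 1 higher intron region and Elavl4 1 lower one, with a score of 4.51. Mbnl1, a muscleblind regulator of developmental exon choice, had 1 lower intron region. Khdrbs2 and Khdrbs3, which encode relatives of Sam68, had 1 higher region each, and Rbm20, a regulator of titin splicing in heart, had 1 higher region with a score of 4.23. Of 8 genes for proteins of the large assembly of splicing regulators that Rbfox proteins join, 1 had regions, Hnrnpc. Among protein-coding RefSeq genes 10.7% had a region, so nothing is read from this count. Both Hnrnpc regions were higher, 1 in intron 2 and 1 in the promoter class, 1164 bp before the start.

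**Figure D5:**
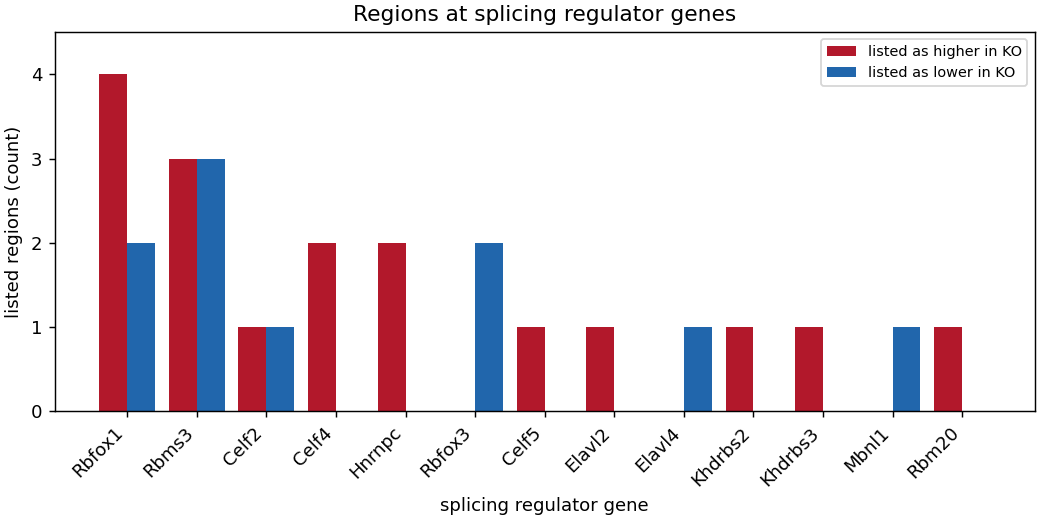
Number of listed regions at each of the 13 splicing regulator and RNA-binding protein genes that had any, with bars for regions listed as higher and as lower in KO. Rbfox1 shows 4 higher and 2 lower regions and Rbfox3 2 lower.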

How the data were processed

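CUT&Tag libraries were made with 14 PCR cycles, per the labels' protocols. Tools listed in the submitters' processing notes are CASAVA 1.4, FastQC and Bowtie2 2, with mm9 as the build, and their roles are not described. Not stated are the peak caller, how IgG was used, how regions entered a list, the annotation tool and the scale of the score. Per the file headers, the authors' deposited lists give position, width, a peak score, an annotation class, and the transcript with the nearest start with its position and distance in bp. These positions and distances are the authors' other values.

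Symbols were matched to a RefSeq gene table of GRCm38.p6. Of 4741 symbols 3357 matched, and the transcript lay on the gene of that name in 3842 of 3852 regions with a match and in 8 of 8 members. Coordinates were read as GRCm38. Regions placed on mm9 but annotated on GRCm38 would pass this check, so the regions may be on either build, and a wrong build would change the distances to starts and transcripts, the intron placements and the overlaps with RefSeq spans, but not the widths or spacings of the regions as deposited. The numbering of regions runs to 6359, and 927 numbers appear in neither list.

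The members and gene lists were chosen with earlier results of these data known. Named genes were every Rbfox gene, every listed splicing regulator with a region, and, of genes of 1 Mb or more, the 10 longest and the 5 with most regions, of which the 5th place was shared by 4 genes. A marker gene is not reported here. With 1 H3K9me3 library per genotype no test was made. Shares have exact Clopper-Pearson and densities exact Poisson 95% intervals, which cover counting error only. Alternatives were the way members are assigned, a score at least 1 above the smallest of the list, merging of regions within 10 kb, other gene spans and, chosen after seeing the data, overlap with the RefSeq span. Counting by gene was checked on simulated data and recovered the placed regions in 64 of 64 genes. Promoter sequences are from RefSeq (GRCm38.p6), which held both genes. The software was scipy 1.17.1, pandas 2.3.3, numpy 2.4.6 and, for figures, matplotlib 3.10.9, under Python 3.11.15.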

Additional observations from a re-analysis of the deposited data

How the results depend on the processing

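The comparison rests on 1 H3K9me3 library per genotype and 8 regions, without counts, fold changes or depth, so no alternative can show whether a direction would recur. No paired analysis was possible because each group is 1 library. Leaving out a replicate was not possible for the same reason. Of 33 alternative values, 31 stayed within the interval of the reported value or, for the count of regions and the median spacing, within 1.5 times of it. This number is no measure of stability, because the intervals for Rbfox1 and Rbfox3 are wide. Merging within 10 kb also could not change the values of these genes, whose closest regions were 13.4 kb apart. The count of Rbfox1 and Rbfox3 regions was 8 by nearest start, 7 by host gene, 6 with the score minimum, which removed both lower Rbfox1 regions, and 11 with regions that overlap the RefSeq spans. With the score minimum the turn from higher to lower along the regions assigned to Rbfox1 was therefore lost. The share of these regions listed as higher was 50.0% as reported, 57.1% by host gene, 66.7% with the score minimum and 45.5% with regions that overlap the RefSeq spans. Over all listed regions, with no score minimum or limit to host genes, it was 64.2%, which is not matched to these alternatives. The density over genes of 1 Mb or more, 1.67 regions per Mb, moved to 1.00 with the score minimum, which leaves fewer regions, and to 2.18 when all regions overlapping the RefSeq spans were counted, which adds regions.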

Other observations

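Regions around both genes were counted beside the share of all listed regions that were higher, 64.2%. Within 1 Mb before its RefSeq span lay 3 listed regions, all higher, and within 1 Mb after it lay 6, of which 5 were higher. With so few regions nothing is read from these counts. The lower one is the intergenic region assigned to Rbfox1. Around Rbfox3, 2 of 4 regions within 1 Mb on the side of lower coordinates and 1 of 2 on the other side were higher, while both regions inside the gene were lower.

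Rbfox3 was one of 13 neuronal marker genes examined. Of these, 9 had regions, 5 in the higher list only, 3 in the lower list only (Rbfox3, Neurod2 and Elavl4) and Gap43 in both. Their 12 regions were 58.3% higher (exact interval 27.7 to 84.8), against 64.2% of all listed regions. The 9 genes are 69.2% of the list, against 10.7% of 21900 protein-coding RefSeq genes, a comparison that does not account for gene length or for the choice of the list with earlier results known. Rbfox3 was the only one of them with 2 lower regions. Syt1 had 2 higher regions, both in its introns.

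The placement of regions in long genes depends on the annotation beyond Rbfox1. Of the 64 genes of 1 Mb or more, 21 held more regions by overlap with the RefSeq span than by the authors' placement.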
